A study of Ambystoma mexicanum with 20 samples.

Results

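In oocytes of the axolotl (Ambystoma mexicanum, a salamander), 300 RNA features were followed whose mean level fell from the animal to the vegetal pole. They were chosen by their own values. Their mean level had to fall in order from segment A through B, C and D to E, the mean in E had to lie above 25% and at most at 50% of the mean in A, and E had to be below A in each of 4 oocytes. Levels are CPM, the count of a feature scaled to the total count of its library. Of 32960 features, 15472 had a mean of at least 10 CPM over the 20 libraries, and 1682 of these had segment means in falling order. The mean in E was at most 50% of that in A for 490, and above 25% for 441 of them. E was below A in all 4 oocytes for 429, and the 300 with the highest mean CPM were kept. The order of the segments and the size of the fall therefore describe the choice and are given as a description.

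The RNA came from 4 oocytes, each embedded, sliced in a cryostat and divided into 5 segments, A being the first animal and E the last vegetal one, so that every segment was represented by 4 libraries, 1 per oocyte. No treatment separates the groups, and the strain, age and number of the females are not given in the sources used here. Per the labels' protocols, each library was made from 80 ng of total RNA after depletion of ribosomal RNA, with a strand-specific kit. A level is thus a share of the RNA of a segment, and a smaller share cannot be told apart from an unchanged amount of that RNA among more of other RNAs. The labels give the oocytes the numbers 1 to 4, which are used here, and the titles call the same oocytes 10, 4, 5 and 9. Library totals ran from 806943 counts in segment E of oocyte 2 to 15554319 in segment A of oocyte 4.

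An amphibian oocyte is polarised before fertilisation. Its nucleus, the germinal vesicle, lies towards the animal pole, while large yolk platelets fill the vegetal side. RNAs stored by the oocyte are inherited by the cleaving embryo. In Xenopus, RNAs anchored at the vegetal cortex include germ plasm components and regulators of germ layer formation, and the animal cap gives rise mainly to ectoderm. Feature identifiers in the deposited tables carry no gene names. None of the 300 members (0) and none of the 32960 identifiers (0) matched the RefSeq gene table of the axolotl, so the roles of the members are not given. Markers of follicle cells, which surround an oocyte, could not be looked up for the same reason.

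By the rule, the share of the members in E was less than 50% of that in A, and the cap on their number kept the more abundant ones. Their mean over all libraries ran from 25.8 to 421 CPM, with a median of 66.0. Over the members the median of the means was 83.0 CPM in A and 78.5 CPM in B. From C to E it was 74.0, 54.0 and 34.6 CPM. E stood at 43.5% of A for the median member, and the quartiles were 38.4% and 47.2%. The members crowded towards the upper limit of the rule. Just inside it, a member had 46.9 CPM in A and 23.4 in E, or 49.9%, and the first feature beyond it had 81.2 and 40.6 CPM, or 50.01%. At the lower limit the last member had 247 CPM in A and 63.1 in E, or 25.5%, and the nearest feature beyond had 67.8 and 16.8 CPM, or 24.8%. The limit of 300 excluded 129 features that met the rule, with means from 10.2 to 25.4 CPM. Across members, Spearman's rho between mean CPM and E as a percentage of A was -0.0017 (300 members, a description across features that share libraries).

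Together the members held a falling share of the counts, and as shares of the library totals the 4 oocytes ended at nearly the same value. In segment A they held 3.56% of the counts in oocyte 1, 3.40% in oocyte 2, 3.41% in oocyte 3 and 2.94% in oocyte 4. In B these shares were 3.08%, 3.35%, 3.33% and 2.92%, and in C they were 2.81%, 3.23%, 2.99% and 2.69%. In D the shares were 2.34%, 2.36%, 1.94% and 1.86%, and in E 1.33%, 1.41%, 1.44% and 1.35%. Oocyte 4 was lowest in every segment except E. No share in E reached a share in any other segment, while the shares of A, B and C overlapped. The mean was 3.33% ± 0.266 for A, 3.17% ± 0.209 for B and 2.93% ± 0.236 for C (SD, n = 4 each). It was 2.12% ± 0.262 for D and 1.38% ± 0.0475 for E.

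**Figure D1:**
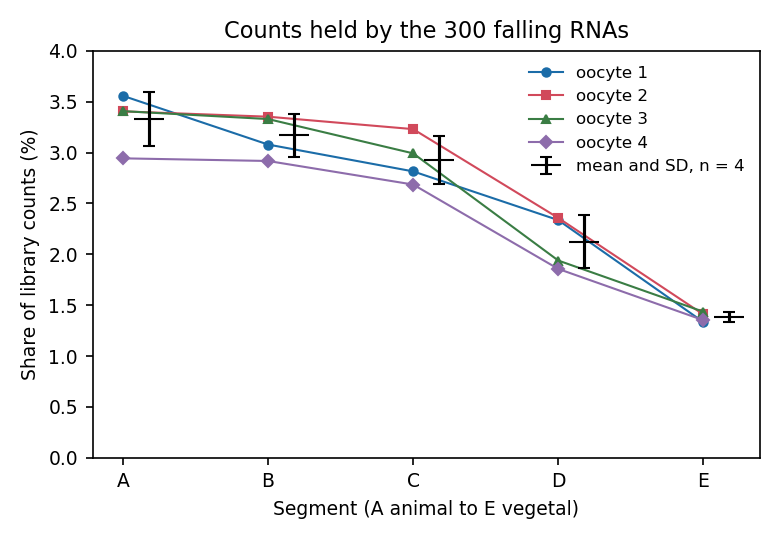
Share of each library's counts held by the 300 members (vertical axis, percent) in segments A to E (horizontal axis); coloured points joined by lines are the 4 oocytes, black bars the mean and SD. The 4 values of E lie between 1.33% and 1.44%, below the values of every other segment, and oocyte 4 starts lowest at 2.94% in A.

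Most of the fall lay on the vegetal side of segment C. The median step over the members, on the log2 scale, was -0.06 between A and B and -0.09 between B and C. It was -0.43 between C and D and -0.60 between D and E. By segment C the median member had completed 19.5% of its fall from A to E, with quartiles of 13.3% and 26.4%. In 292 of the 300 members less than 50% of the fall had taken place by C. The single steps differed widely between members. The step between C and D ran from -1.04 to -0.01, and that between D and E from -1.34 to -0.09.

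The same rule with other limits gave 2 neighbouring sets. In 44 features the mean in E was at most 25% of that in A, and in 1055 it was above 50%. The median share of the fall completed by C was 26.0% in the steeper set and 24.0% in the shallower set, against 19.5% in the members. For these sets, then, the steps from C to E were the larger ones. The median step from C to D was -0.83 in the steeper and -0.17 in the shallower set, and that from D to E was -1.18 and -0.33. Features with a mean of at least 10 CPM had median steps of -0.01, 0.00, -0.09 and -0.23 in the order of the axis. These values follow from the choice of the sets and were not tested against each other.

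**Figure D2:**
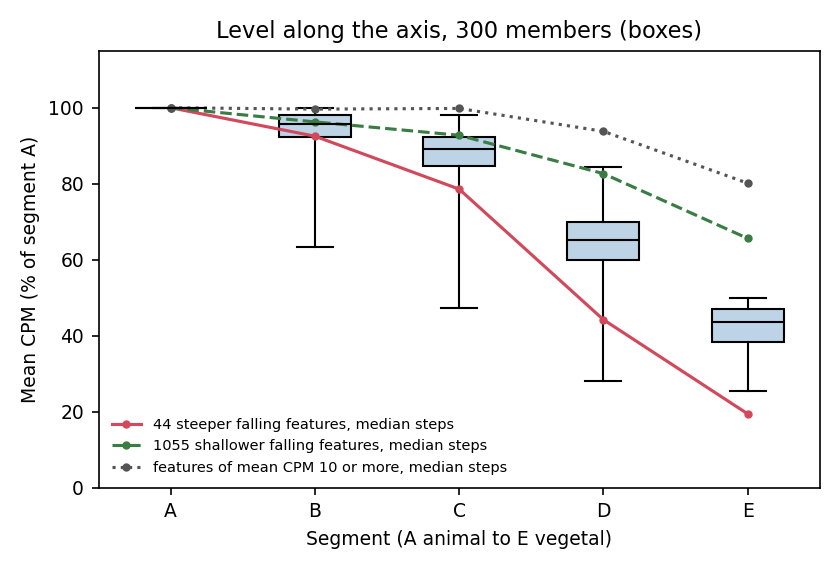
Mean CPM of each segment as a percentage of segment A (vertical axis) along the axis (horizontal axis); boxes show the quartiles and median of the 300 members with whiskers to the lowest and highest member, lines the summed median steps of 3 other sets. The boxes of A, B and C lie close together and those of D and E drop away, to a median of 43.5% in E, between the 44 steeper and the 1055 shallower features.

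The members with the most counts show the course with the least counting error, and the 2 with the highest mean CPM are given in full. AMEXTC_0340000161616 was the most abundant member, with a mean of 421 CPM. In oocytes 1 to 4 it had 541, 559.7, 517 and 450.4 CPM in segment A, 499, 536, 532 and 481 in B, and 435, 539.8, 496 and 455 in C. In D it had 338, 401, 346 and 311 CPM, and in E 219.8, 255, 268 and 246. All 4 values of E were below all of D, and all of D below all of A, B and C, which overlapped. The mean fell from 517 CPM ± 47.7 in A to 247 ± 20.4 in E (SD, n = 4), so that E was at 47.8% of A. The order A above B was found in oocytes 1 and 2 and reversed in oocytes 3 and 4.

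AMEXTC_0340000037399 was the next, with a mean of 325 CPM. In oocytes 1 to 4 it had 389, 463, 439.6 and 351 CPM in A, 340.1, 452, 431 and 365 in B, and 347, 436, 388 and 324 in C. In D it had 247, 327, 256 and 213 CPM, and in E 136, 208, 224 and 155. The values of D and E overlapped between oocytes but not within an oocyte. The mean fell from 411 CPM ± 50.5 in A to 181 ± 41.9 in E (SD, n = 4), or to 44.1% of A. Within single oocytes E stood at 35.1%, 44.9%, 51.0% and 44.3% of A in the order of the oocytes, so the largest relative fall was in oocyte 1.

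**Figure D3:**
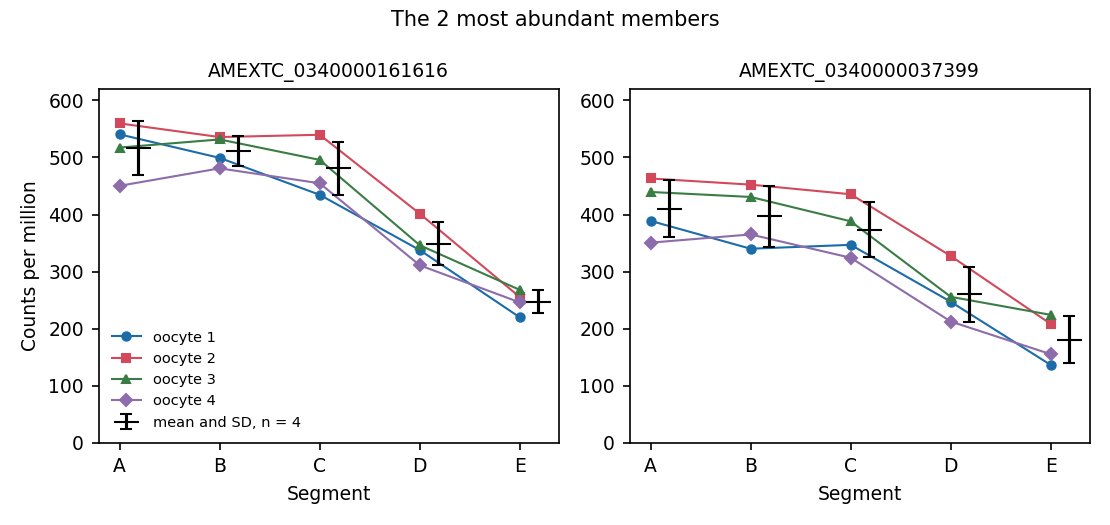
CPM (vertical axes) of the 2 most abundant members in segments A to E (horizontal axes); coloured points joined by lines are the 4 oocytes, black bars the mean and SD. In the first member all values of D lie below those of A, B and C, in the second they overlap with C between oocytes (327 CPM in D of oocyte 2, 324 in C of oocyte 4), and in both E is lowest in every oocyte, at 47.8% and 44.1% of the mean of A.

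The rule asked for the falling order in the means of 4 oocytes and not in each of them, and single oocytes often departed from it in the animal segments. The full order from A to E was found in 156 of the 300 members in oocyte 1, 78 in oocyte 2, 120 in oocyte 3 and 74 in oocyte 4. Among all features with a mean of at least 10 CPM it was found in 8.39%, 4.95%, 7.48% and 4.65%, with oocytes 1 and 3 again ahead. The full order was seen in all 4 oocytes for 6 members, in 3 for 28, in 2 for 109, in 1 for 102 and in none for 55. E was below D in 280 to 289 members per oocyte, and in 62.6% to 75.1% of all those features. D was below C in 250 members in oocyte 1 and in 285, 287 and 286 in the others. Over all those features the shares were 54.7%, 57.6%, 64.3% and 59.8%. B was below A in 261 members (87%) in oocyte 1, but in 163, 178 and 161 in oocytes 2, 3 and 4. In oocyte 1 the share with B below A was also 84.1% in the shallower and 86.4% in the steeper set, and 55.2% over all those features. It was 47.2%, 44.9% and 51.1% over all those features in oocytes 2, 3 and 4. The median ratio of E to A over the members was -1.32, -1.24, -1.22 and -1.08 on the log2 scale in oocytes 1 to 4 (0.5 CPM added to each value), a mean of -1.21 ± 0.0990 (SD, n = 4).

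Oocytes also differed in where the fall was placed. In oocyte 1 the median step over the members was -0.25 between C and D and -0.77 between D and E, and in oocyte 2 it was -0.41 and -0.71. In oocyte 3 the step from C to D was the larger, at -0.62 against -0.43, and in oocyte 4 the steps were nearly equal, at -0.49 and -0.46. For the step from C to D, the members shared their lowest and highest oocyte with other features. The median step from C to D was smallest in oocyte 1 and largest in oocyte 3 in the neighbouring sets as well. It was -0.08 and -0.28 in the shallower set, and -0.56 and -1.16 in the steeper set. Over all features with a mean of at least 10 CPM it was -0.04 and -0.17. The step from D to E was shared in part. In both neighbouring sets it was larger in oocytes 1 and 2 than in oocytes 3 and 4. Over all those features it was -0.16, -0.28, -0.16 and -0.24 in oocytes 1 to 4. In the members the step from D to E was largest in oocyte 1, and in the other sets in oocyte 2. Whether the pieces were cut at the same depth in each oocyte is not given in the sources used here, and its part in these differences was not tested.

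To see the fall in libraries that had no part in the choice, the rule was applied to 3 oocytes at a time and the features it kept were read in the oocyte left out. The fall from A to E was found there again. E was below A in 291 of the 300 features kept when oocyte 1 was left out, and in 294, 295 and 299 for oocytes 2, 3 and 4, a mean of 98.3% ± 1.10 (SD, n = 4). Among all features with a mean of at least 10 CPM in the other 3 oocytes, E was below A in 63.2%, 69.5%, 72.4% and 75.2%. The median log2 ratio of E to A in the left-out oocyte, with the same 0.5 CPM added, was -0.997, -1.07, -1.10 and -1.02 for the features kept, and -0.23, -0.36, -0.36 and -0.35 for all those features. The upper quartile of the features kept was -0.68, -0.82, -0.91 and -0.82, and the lower quartile of all features was -0.70, -0.89, -0.76 and -0.70. In oocytes 3 and 4 these middle ranges did not overlap, and in oocytes 1 and 2 they barely did. The ratio lay above 25% and at most at 50% in 133, 156, 190 and 162 of the 300 features, and was above 50% in 146, 122, 102 and 134. Among all those features it lay in that range in 12.1%, 13.1%, 13.1% and 11.1%. It was above 50% in 12872 of 15409, 11874 of 15447, 12728 of 15503 and 13366 of 15470.

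The vegetal steps carried over to the left-out oocyte, and the first animal step did not in oocytes 2, 3 and 4. E was below D in 92.6% ± 2.15 of the features kept, against 68.1% ± 5.25 of all features of at least 10 CPM (SD, n = 4 oocytes). D was below C in 92.0% ± 8.46 against 59.1% ± 4.09, and C was below B in 71.7% ± 8.16 against 49.6% ± 1.90. B was below A in 45.5% ± 12.2 against 49.5% ± 4.60, and the direction of this gap differed between oocytes. In oocytes 2, 3 and 4 the share with B below A was 38.7%, 43.3% and 36.7% of the features kept. All features had higher shares there, at 47.1%, 44.6% and 51.4%. In oocyte 1 the features kept had the higher share, at 63.3% against 55.03%. The complete order from A to E was found in 28.3%, 17.3%, 25.7% and 18.3% of the features kept and in 8.38%, 4.93%, 7.44% and 4.63% of all features. These sets shared 140, 203, 204 and 186 features with the 300 members.

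**Figure D4:**
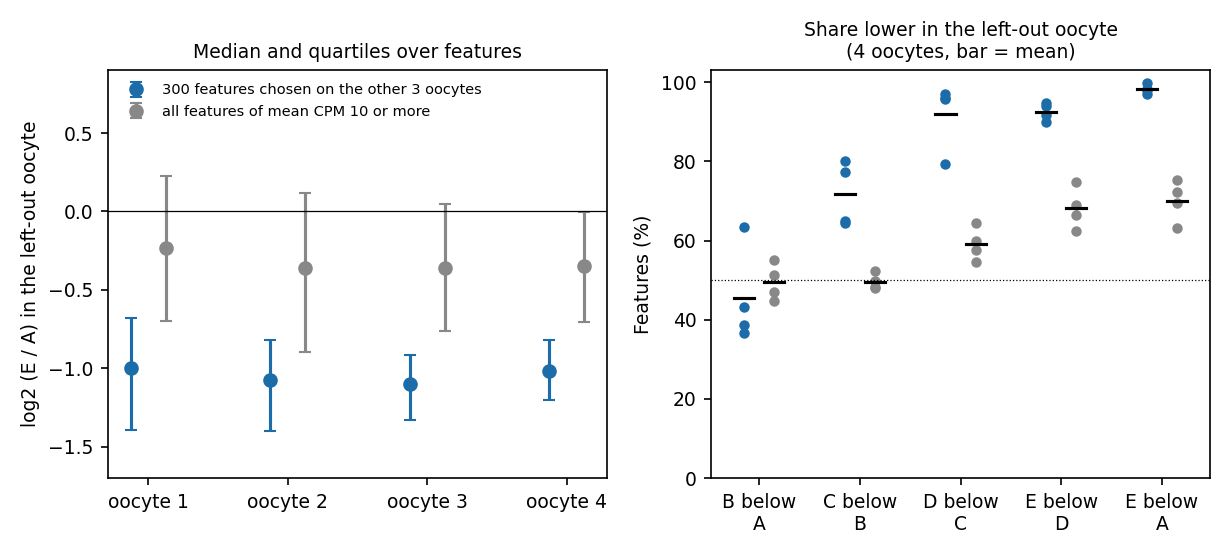
Features chosen on 3 oocytes and read in the fourth (blue, 300 features each time) beside all features of at least 10 CPM (grey): left, median and quartiles over features of log2 E over A in the left-out oocyte (vertical axis) by oocyte (horizontal axis); right, percentage of features lower in the more vegetal segment (vertical axis) for 5 pairs of segments (horizontal axis), each point an oocyte and each bar a mean. In the right panel the blue points stand above the grey ones for every pair except B and A.

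Segments were also compared across all 32302 features that passed a filter on low counts, with edgeR's quasi-likelihood test, TMM scaling and Benjamini-Hochberg adjustment. All 300 members passed the filter. The rule used these contrasts, so the numbers describe the choice. E was lower than A at an adjusted p under 0.05 in 255 of the 300 members, and in 7.73% of all features tested. D was lower than C in 33 members (0.888% of all features) and E lower than D in 30 (0.672%). With the oocyte as a block, which removes differences between oocytes from the spread, 279 members were lower in E than in A (12% of all features tested). In that fit 100 members were lower in D than in C (2.74% of all features) and 137 lower in E than in D (2.38%). The numbers were also lower with any oocyte left out, where each segment had fewer libraries. The part of the smaller number of libraries in this was not tested. Without oocyte 1, 2, 3 or 4 in turn, 22, 7, 4 and 5 members were lower in D than in C, and the shares of all features were 0.525%, 0.182%, 0.12% and 0.137%. For E against D the members called were 1, 0, 13 and 4, and the shares were 0.087%, 0.0155%, 0.287% and 0.206%. Without oocyte 2, 106 members had an unadjusted p under 0.05 for E against D, as had 19 of the 44 steeper and 72 of the 1055 shallower features. The share of all features at that threshold was not computed without oocyte 2. With all oocytes it was 12.3%, against 58.7% of the members, which the rule had chosen by these segments. The numbers called depended on the scaling as well. With library totals, 55 members were lower in D than in C (1.65% of all features) and 123 lower in E than in D (3.15%), and with the authors' constants 298 (77.1%) and 256 (23.7%).

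With TMM scaling, no difference between neighbouring animal segments was detected for any member. B against A and C against B each gave 0 members, with 0% of all features lower in the more vegetal segment, and 0 members at an unadjusted p under 0.05 (edgeR). Few features of any kind passed that unadjusted threshold, with 1.04% of all features for B against A and 1.41% for C against B, in either direction. Both lie under the share of 0.05 that this threshold passes where nothing differs, so the test without a block was conservative here. The lack of calls does not show that A, B and C are alike. DESeq2, with its own scaling, also gave 0 members for each, with 0.0155% and 0.0031% of all features lower. It had 1 and 2 members at an unadjusted p under 0.05, and 3 and 6 of the 1055 shallower features. With the oocyte as a block the numbers stayed at 0, with 0% of all features lower. At an unadjusted p under 0.05 there were 3 and 7 members, and 7 and 10 shallower features. The share of all features at that unadjusted threshold was not computed for DESeq2 or the block. With the authors' constants as scaling, 287 members were higher in B than in A, as were 66.4% of all features.

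The rule sets no condition on the level of an RNA in 1 oocyte against another, and this was tested with the segment held fixed. Each oocyte is a single specimen and its 5 libraries are slices of it, not independent replicates, so these p-values compare these 4 oocytes with the spread between slices. An F-test in edgeR, at the same threshold, called 146 of the 300 members (48.7%) as different between oocytes. The share was 26.2% over all features tested, 35.5% over those of at least 10 CPM and 40.6% over the 9350 features in the members' own range of mean CPM. The gap between 48.7% and 40.6% was not tested. In the steeper set 8 of 44 features were called and in the shallower set 459 of 1055 (43.5%). Without oocyte 4, 97 members (32.3%) were called, with 17.3% of all features, and DESeq2 called 186 (62%), with 38.4% of all features.

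The differences between oocytes were mostly small and often in the same direction. Among the 146 members called, the mean CPM over the 5 segments was lowest in oocyte 4 for 96 (65.8%) and highest in oocyte 2 for 81 (55.5%). Among the 3795 features called in the same range of abundance, oocyte 4 was lowest for 29.3% and oocyte 2 highest for 29.2%. The highest oocyte exceeded the lowest by a median of 1.45-fold in the members called, and by 1.23-fold in the 154 not called. That gap follows from the choice of members by the test. Over all 300 members the median was 1.34-fold, and over the 9350 features in the same range it was 1.29-fold. These folds, and which oocyte was lowest or highest, were read with library totals, while the calls used TMM scaling. Averaged over the segments, the members held 2.62% of the counts in oocyte 1, 2.75% in oocyte 2, 2.62% in oocyte 3 and 2.35% in oocyte 4.

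Both of the most abundant members were among those called. AMEXTC_0340000161616 had a mean over the segments of 406, 458, 432 and 389 CPM in oocytes 1 to 4, a 1.18-fold range (adjusted p = 0.0326, edgeR). This call was lost in 4 of 11 alternatives. Without oocyte 2, 3 or 4 the adjusted p was 0.114, 0.0717 and 0.102 (edgeR). After thinning every library to the smallest total it was 0.120 (edgeR). Over the 11 alternatives the adjusted p ran from 0.00127 (DESeq2) to 0.120. AMEXTC_0340000037399 had 292, 377, 348 and 282 CPM, a 1.34-fold range (adjusted p = 0.000581, edgeR), and the adjusted p stayed under 0.05 in all 11 alternatives, from 3.91e-09 to 0.0202.

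The called member with the widest range between oocytes was picked after its values were seen. It ranked 256th by mean CPM and differed 9.12-fold between the highest and the lowest oocyte. Its mean over the segments was 6.44 CPM in oocyte 1, 58.8 in oocyte 2, 58.7 in oocyte 3 and 8.43 in oocyte 4 (adjusted p = 0.00255 between oocytes, edgeR). Oocytes 2 and 3 were high and oocytes 1 and 4 low in every segment. In segment B it had 466 and 931 counts in oocytes 2 and 3 and 0 counts in oocytes 1 and 4, although A and C of oocyte 1 had 22 and 98. E stood at 55.4%, 28.5%, 50.03% and 49.3% of A in oocytes 1 to 4, where the rule required E below A. Segment C exceeded A in oocyte 1, with 10.1 against 7.33 CPM, and in oocyte 4, with 24.9 against 9.90 CPM.

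The steepness of the gradient was compared between oocytes by a test of the linear slope along the 5 segments. No member was called (0 of 300, with 0% of all features tested, edgeR), and 25 (8.33%) had an unadjusted p under 0.05, where the share was 6.83% of all features and 11.6% of those in the same range of abundance. DESeq2 called 4 members (1.33%), with 1.03% of all features. Because the rule required E below A in every oocyte, it limits how unlike the slopes of a member can be.

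How the members run along the axis depended on the scaling. The authors also deposited scaled values, which are the raw counts multiplied by a constant for each library, and how the constants were chosen is not stated. On these values 281 members were highest in B, 19 in C and none (0) in A. Of 31782 tested features, 14161 were highest in B, 16541 in C and 71 in A. The median step from A to B was 1.27 on the log2 scale over the members. Over the tested features it was nearly the same, at 1.32. From A to E the median ratio over the members was -1.20 with library totals, -0.94 with TMM factors and -1.97 on the authors' values, and that over the 31782 tested features with counts in every segment was -0.33, -0.08 and -1.10. A constant per library shifts every feature alike, so the difference between members and tested features is nearly the same by construction. With TMM scaling the median member had 52.0% of its level of A left in E, outside the limit of the rule. The fall from A to B was not found on the authors' values.

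**Figure D5:**
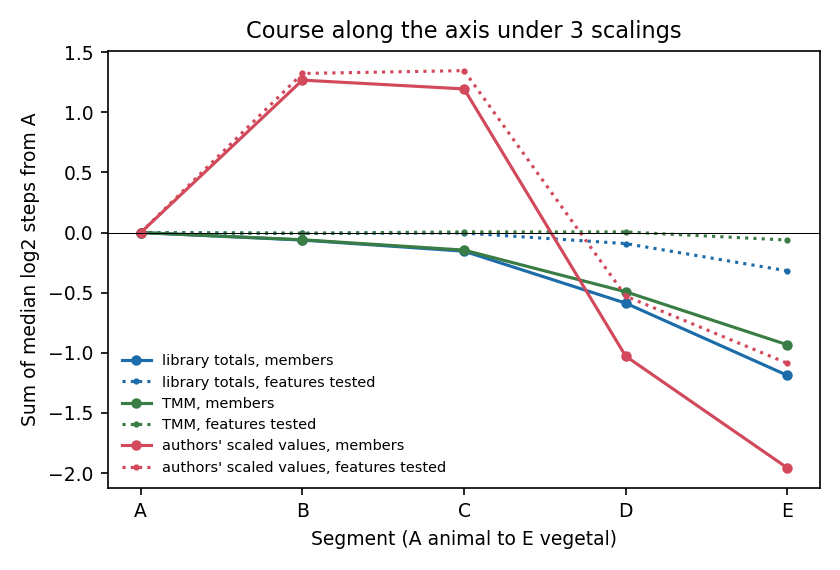
Sum of the median log2 steps from segment A (vertical axis) along the segments (horizontal axis) for the 300 members (solid) and the tested features (dotted) under library totals, TMM factors and the authors' scaled values. On the authors' values both lines rise to B, by 1.27 and 1.32, before they fall.

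The counts behind a single value differed between libraries. In segment E of oocyte 2, the smallest library, the median member had 27 counts and 32 members had fewer than 10. In the other 19 libraries the median member had 94 to 1146.5 counts, and at most 2 members had fewer than 10. Of the 6000 values of the members, 20 were 0, of which 14 were in segment E of oocyte 2. A count of 0 was found in at least 1 library for 16 members (5.33%) and for 5.39% of the features in the same range of abundance. The median coefficient of variation between oocytes was 15.4%, 13.4%, 14.7%, 20.9% and 22.8% from A to E. For the features of the same range it was 14.5%, 12.7%, 13.9%, 18.1% and 19.9%.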

How the data were processed

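RNA was measured in 20 libraries, 5 segments of each of 4 oocytes. The authors deposited raw counts of 32960 features and a table of scaled values, a signal equal to the raw count times a constant per library. Division by that constant gave whole reads (within 0.01) for 100% of the values, all equal to the deposited counts, so a count test on them is the test of the counts; it called 5114 features for E against A, and 18715 with the authors' constants as scaling. The lowest row maximum was 30 counts. Per the submitters' processing notes, Trimmomatic, STAR 2.5.3a, kallisto and DESeq2 were used; their roles, the build and the annotation are not given in the sources used here, so features that share reads with a copy are uncertain.

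Tests used edgeR 4.0.16 under R 4.3.3 (filterByExpr, at least 10 counts and a total of at least 15, 32302 features kept and 658 left out; TMM; robust quasi-likelihood; Benjamini-Hochberg adjustment, threshold 0.05). Models held segment means, segment plus oocyte, or these plus a slope per oocyte. Ratios within an oocyte used a pseudocount of 0.5 CPM. The scripts were tested on simulated data. Alternatives were RLE factors, library totals, the authors' constants, no filter, a minimum mean CPM of 1, thinning to the smallest library, leaving out each oocyte, an oocyte block, DESeq2 1.42.0 and a threshold of 0.01. The members and lists were chosen with earlier results of these data known. Named members are the 2 of highest mean CPM, since no identifier matched a gene name.

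Per the labels, libraries that share a number were cut from a single oocyte. Across features, the deviations of such libraries from their segment means had a median Pearson r of 0.335 over 40 pairs of libraries, from 0.198 to 0.507. Pairs from different oocytes and segments had a median of -0.285 over 120 pairs, from -0.456 to 0.473, so the ranges overlapped. Deviations from a mean of 4 libraries cancel within a segment, which lowers the r between oocytes by construction. No library columns were identical (0 pairs). P-values of segment contrasts without a block measure the spread between these oocytes, and those between oocytes the spread between slices.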

Additional observations from a re-analysis of the deposited data

Results flagged for a closer look

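Of 28 groups of 4 values checked for one value far from the other three, 2 stood out, where chance gives about 1.4, or 1 in 20. Both concern oocyte 1. The median step from A to B over the members was -0.19 on the log2 scale in oocyte 1, against -0.02, -0.04 and -0.02 in oocytes 2, 3 and 4. In the shallower set it was -0.16 in oocyte 1, against -0.04, -0.04 and -0.01, and in the steeper set -0.33, against -0.13, -0.06 and -0.05. When oocyte 1 was left out of the choice, D was below C in 79.3% of the features kept, against 95.7%, 96.0% and 97.0% for the others. Segment A of oocyte 1 had 3000775 counts, the smallest total among the segments A, and its part in the step from A to B was not tested. The share with D below C was read in segments C and D of oocyte 1, so that library does not enter it.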

How the results depend on the processing

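The number of features that met the rule was 429 and depended on the scaling: with TMM-scaled CPM it was 189, of which 172 were among the 429, and on the authors' scaled values 0. The falling order within every oocyte left 6. Leaving out each oocyte gave 345 to 545 features. Without oocyte 1 the 345 shared 194 with the 429, which is 56.2% of the shorter and 45.2% of the longer list. Without oocytes 2, 3 and 4 in turn, 67.1%, 62.9% and 70.6% of the 429 were kept. Thinning to the smallest library gave 347, of which 174 were shared. With the median over oocytes in place of the mean, 437 features met the rule, and 270 of these were among the 429.

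The numbers of members called moved as follows. For D against C, 33 members became 55 with library totals, 298 with the authors' constants, 100 with the oocyte as a replicate block, 21 after thinning, 64 in DESeq2, 8 at an adjusted p under 0.01 and 4 to 22 with each oocyte left out. For E against D, 30 became 123, 256, 137, 13, 50, 2 and 0 to 13 in the same order. The numbers over all features moved too. After thinning, 0.813% of the 17586 features tested were lower in D than in C, and 0.546% lower in E than in D. In DESeq2 these shares were 2.01% and 1.11%. At an adjusted p under 0.01 (edgeR), 481 and 307 of all features were called, in either direction. The paired fit changed no other number of members by more than 1.5 times, and gave 279 for E against A (12% of all features). B against A gave 287 members, higher in B, with the authors' constants (66.4% of all features). Between oocytes, 146 became 94 after thinning and 97 to 130 with each oocyte left out. There the share of all features went from 26.2% to 20.3% and to between 17.3% and 21.7%. The slope by oocyte gave 4 members in DESeq2 (1.03% of all features).

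The median log2 ratio of E to A was -0.94 with TMM, -0.90 with RLE factors and -1.97 on the authors' scaled values. On those values the step from A to B reversed to 1.27, that from C to D was -2.22 and that from D to E -0.93; with RLE factors the last was -0.40. With TMM-scaled CPM, the rule applied to 3 oocytes kept other and shorter lists of 156, 170, 192 and 276 features, which shared 71 to 116 with the members. In the left-out oocyte E was below A in a mean of 94.4% of them, against 54.4% of all features of at least 10 CPM. Their median log2 ratio of E to A ran from -1.24 to -0.80 with a mean of -0.997, against a mean of -0.075 for all those features. With TMM-scaled library sizes the members held 1.57% ± 0.0978 of the counts in E (SD, n = 4), from 1.47% to 1.69%. With library totals the SD was 0.0475, so the closeness of the oocytes in E depended on the scaling. Thinning and library totals change depth and scaling by construction; the cause of the other changes was not tested. Of the other values that describe the members, 62 under these alternatives and 64 with an oocyte left out stayed within a limit. The limit was the spread between oocytes or, for numbers of features, a factor of 1.5. Leaving out an oocyte cannot move a mean share by the SD between oocytes, so those shares were within the limit in advance. Many of the numbers compare no called members with none, for B against A, C against B and the slope by oocyte. The 62 and 64 are therefore a weak guide to stability.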
